A study of Mus musculus with 9 samples.

Results

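Mitochondrial DNA (mtDNA) is the small circular genome inside mitochondria, and the RNA of its genes was followed in the livers of male C57BL/6 mice. The members were all rows of the count table whose symbol begins with mt-, and they numbered 37 of the 54532 genes listed. They comprised 13 protein genes, 2 ribosomal RNA genes and 22 transfer RNA genes, which is the full set of this genome. Livers came from 3 groups of 3 mice. Old mice labelled Fabp4 shRNA were injected at 14 months with AAV9-shRNA-Fabp4, an adeno-associated virus carrying a short hairpin RNA against the fatty acid carrier Fabp4. Old control mice were injected at the same age with AAV9-shRNA-Neg, a negative control hairpin, and both old groups were sampled at 20 months. Young mice were 8 weeks old, and the labels describe no injection of them, so age and virus cannot be told apart in comparisons with young liver. Both viruses were given by tail vein and into subcutaneous fat, and the labels name no promoter. The labels give the tissue as liver, although their extraction text names NRVMs.

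In animals, both strands of the mtDNA are transcribed into long RNAs that span several genes. Transfer RNAs lie between many of the protein and ribosomal RNA genes, and their excision releases the neighbouring RNAs. The proteins are core subunits of respiratory complexes I, III and IV and of the ATP synthase, while the other subunits of these complexes, and all of complex II, are encoded in the nucleus. The 2 ribosomal RNAs and 22 transfer RNAs serve translation inside the organelle.

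Some libraries stood apart or went against their label. Fabp4 was at 11.2, 3.81 and 7.58 CPM (counts scaled to each library's size, here after edgeR's TMM correction for composition) in the libraries labelled old Fabp4 shRNA 1, 3 and 6. Old control libraries 1, 2 and 5 had 7.21, 13.6 and 10.9 CPM, so the groups overlapped and lower Fabp4 RNA was not seen in every liver labelled with its hairpin. One young library carries no animal number that the labels list and is called the unnumbered young library. Fabp4 was at 64.8 CPM in it, the highest of all libraries, against 3.40 and 2.67 in young libraries 1 and 5. The unnumbered library held 3167 CPM of total counts over 8 skeletal muscle genes, and muscle is itself rich in mitochondria. shRNA library 3 held 80.9 CPM, with all 8 genes counted in it too, and the other 7 libraries 0.512 to 2.38 CPM. The part of muscle in the mtDNA reads of either library was not tested, and values without either library stand beside several of the comparisons. All 5 hepatocyte markers were counted in every library, while of 4 markers of heart muscle Myh6 and Nppa were at 0 in all. Tnnt2 and Tnni3 were counted in all, and the 4 heart markers summed to 0.701 to 1.64 CPM of total counts in the shRNA libraries, 0.733 to 2.30 in old control and 0.351 to 0.731 in young.

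The mtDNA genes together took 8.47%, 4.15% and 4.22% of total counts in the libraries labelled old Fabp4 shRNA 1, 3 and 6. They took 4.42%, 11.1% and 14.5% in old control libraries 1, 2 and 5, and 13.8%, 6.89% and 11.4% in young library 1, the unnumbered one and young library 5. Old control library 1 lay below shRNA library 1, and shRNA library 1 lay above the unnumbered young library, so all 3 groups overlapped. The overlap of shRNA with young rested on the unnumbered library, as young libraries 1 and 5 lay above every shRNA library. Group means were 5.62 ± 2.47% in livers labelled old Fabp4 shRNA, 10.0 ± 5.14% in old control and 10.7 ± 3.50% in young liver (SD, n = 3 each). The highest share was 2.04 times the lowest within the shRNA group, 3.29 times within old control and 2.00 times within young.

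The difference in mean share was -4.40 percentage points for shRNA against old control, and it was -2.13 without old control library 5 and -7.19 without old control library 1. It was -5.09 for shRNA against young. Between old control and young livers it was -0.69, and this turned to 2.10 without old control library 1 and to 0.853 without young library 1. Without the unnumbered young library it was -2.59 for old control against young and -6.99 for shRNA against young. In whole liver, fewer cells of a type and less RNA per cell cannot be told apart. The 5 hepatocyte markers summed to 75130 to 88975 CPM of total counts in the shRNA libraries, 94158 to 110420 in old control and 93524 to 132680 in young, so their sum too was lowest in the shRNA livers. Single markers differed. Alb took 5.34%, 7.17% and 5.72% of total counts in shRNA libraries 1, 3 and 6, and 6.67%, 8.32% and 8.28% in old control libraries 1, 2 and 5. Alb, Ttr, Serpina1a and Cps1 each overlapped between these 2 groups, and Apoa1 did not. The part of hepatocytes in the mtDNA share was not tested.

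Ribosomal RNAs did not follow the protein genes from library to library. Protein genes took 8.29%, 3.86% and 3.81% of total counts in shRNA libraries 1, 3 and 6, while the ribosomal RNAs took 0.147%, 0.271% and 0.389%. In old control libraries 1, 2 and 5 the protein genes took 4.08%, 10.6% and 14.3%, and the ribosomal RNAs 0.327%, 0.435% and 0.155%. In the young libraries the shares were 13.6%, 6.74% and 11.1% for proteins and 0.184%, 0.123% and 0.236% for ribosomal RNAs. The library with the highest protein share in each old group was the one with the lowest ribosomal RNA share.

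Set against each other, ribosomal RNA reads per 100 protein-gene reads were 1.78, 7.02 and 10.2 in shRNA libraries 1, 3 and 6. They were 8.01, 4.11 and 1.08 in old control libraries 1, 2 and 5, against 1.36, 1.83 and 2.11 in the young libraries. The young values lay close together, whereas each old group spanned low and high values, a range of 5.75 times in the shRNA group and 7.42 times in old control. Transfer RNA reads per 100 protein-gene reads moved much less, between 0.311 and 0.537 over all 9 libraries. They were 0.372 to 0.537 in the shRNA group, 0.311 to 0.397 in old control and 0.355 to 0.400 in young liver.

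**Figure D1:**
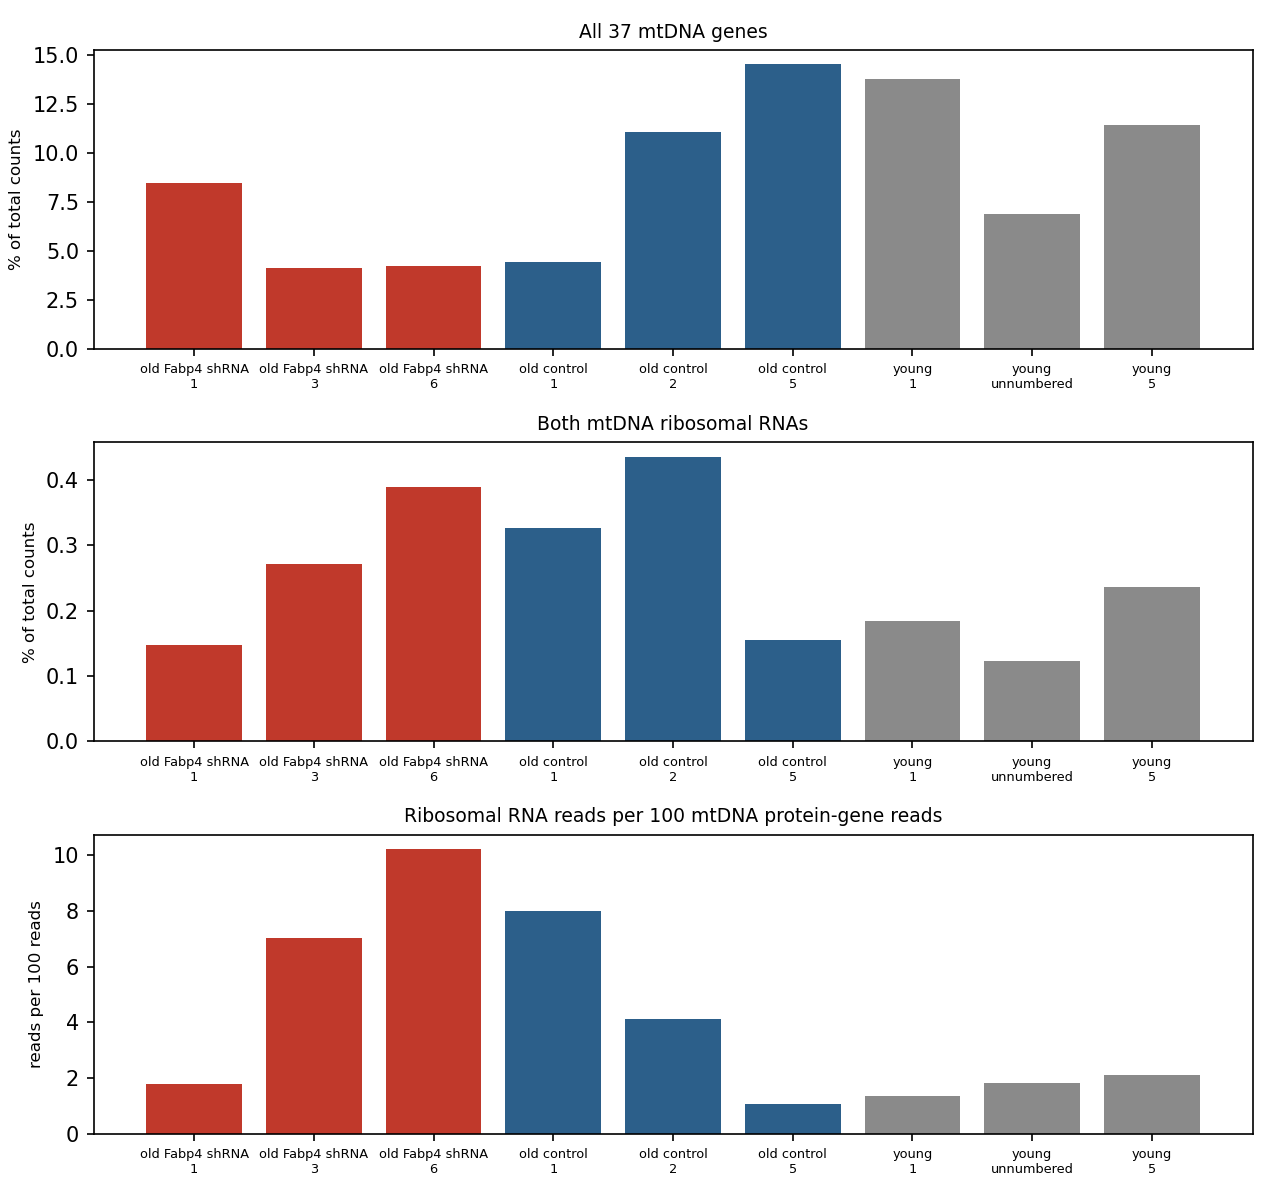
Bars give, for each of the 9 libraries, the share of total counts from all 37 mtDNA genes (top, %), the share from both ribosomal RNAs (middle, %) and ribosomal RNA reads per 100 mtDNA protein-gene reads (bottom). Old control library 1 and shRNA libraries 3 and 6 combine a low mtDNA share (4.15% to 4.42%) with a high ribosomal RNA ratio (7.02 to 10.2).

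The 2 ribosomal RNAs kept to each other more closely. mt-Rnr2, the large ribosomal RNA (chrM:1094-2675, plus strand), had 10927, 26794 and 35856 reads in shRNA libraries 1, 3 and 6. Old control libraries 1, 2 and 5 had 27239, 40476 and 14711 reads, and the young libraries 18146, 12250 and 19359. mt-Rnr1, the small ribosomal RNA (chrM:70-1024, plus strand), had 10594, 18739 and 30845 reads in the shRNA libraries. It had 21814, 27504 and 9975 reads in old control and 12123, 7674 and 14198 in young. Reads of mt-Rnr2 per read of mt-Rnr1 ran from 1.03 to 1.43 in the shRNA group, 1.25 to 1.47 in old control and 1.36 to 1.60 in young.

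Among protein genes, levels were compared per length, as TMM-scaled CPM per kilobase, and the value given is the median of the 9 libraries. The highest was mt-Co1, a core subunit of complex IV, at 16577, ahead of mt-Cytb of complex III at 12522. The complex I genes mt-Nd1 and mt-Nd2 followed at 11379 and 9927, then mt-Nd4 at 5810, mt-Nd6 at 3598 and mt-Nd5 at 2840. Over the libraries mt-Co1 spanned 5641 to 41263 and mt-Cytb 6749 to 28923, so neighbours in this order overlapped. The ribosomal RNAs stood lower in these counts, at 1082 for mt-Rnr1 and 934 for mt-Rnr2. Such values rank counted reads, and the part of library preparation in the levels of each RNA class was not tested.

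The other 6 protein genes were far lower. mt-Atp6 of the ATP synthase stood at 240.8 CPM per kilobase, the complex IV genes mt-Co2 and mt-Co3 at 174 and 137, the complex I genes mt-Nd3 and mt-Nd4l at 98.9 and 53.2, and mt-Atp8 of the ATP synthase at 5.95. The median over the 7 high genes was 84.2 times that over the 6 low ones. The low genes are neighbours in the mtDNA, and 5 of them, all but mt-Atp8, have an annotated near-identical copy on chromosome 1. No annotated copy of mt-Atp8 was aligned over 100 bases, and it lies in the mtDNA between genes that have one.

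That copy was found by aligning the GENCODE transcripts of the mtDNA genes to all other GENCODE transcripts. It comprises 7 annotated genes between 24611535 and 24616197 on the minus strand of chromosome 1 (GRCm38), and it matches mtDNA positions 6390 to 11042, with 2 mismatches in 4140 aligned bases. Gm28661 matched mt-Co2, Gm10925 matched mt-Atp6, Gm28437 matched mt-Co3 and Gm10222 matched mt-Nd4l at 100% of the aligned bases. Gm28439 matched the first 876 bases of mt-Nd4, and Gm29216 matched 483 bases of mt-Co1. Reads of such identical stretches could belong to either place. How the authors' counting treated reads that match both is not given in the sources used here, and its part in the low levels was not tested.

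The pairs with a mismatch are printed because they show how little separates a member from its copy, with the differing base in capitals. The windows are GENCODE sequence, from chrM:9459-9501 (plus strand) against chr1:24613077-24613119 (minus strand) and from chrM:6390-6433 (plus strand) against chr1:24616145-24616188 (minus strand). Positions are counted from 1 at the first base of the mtDNA gene, and the mtDNA gene's base comes first: T3C in mt-Nd3 against Gm28438, and A1066T in mt-Co1 against Gm29216.
mt-Nd3: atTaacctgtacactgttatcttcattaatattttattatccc
Gm28438: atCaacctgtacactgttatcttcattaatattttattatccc
mt-Co1: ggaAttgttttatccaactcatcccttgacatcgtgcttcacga
Gm29216: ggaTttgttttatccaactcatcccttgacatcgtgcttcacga

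**Figure D2:**
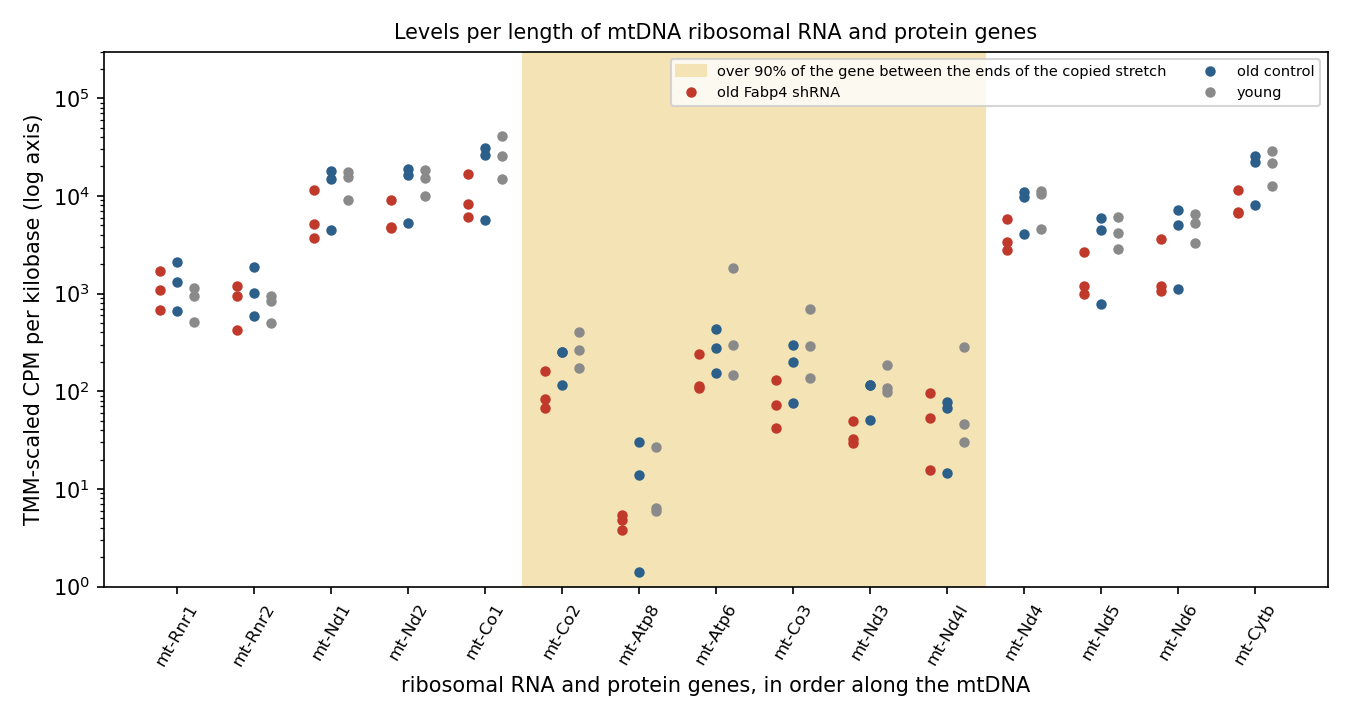
Points give TMM-scaled CPM per kilobase (log axis) of each ribosomal RNA and protein gene in each of the 9 libraries, in gene order along the mtDNA, by group. The 6 shaded genes lie, for over 90% of their length, between the ends of the mtDNA stretch copied on chromosome 1, although mt-Atp8 has no aligned copy of its own. They have medians between 5.95 and 240.8, against 2840 to 16577 for the other 7 protein genes.

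Read counts at the copies were of the same order as those at the 5 longest of these members. Summed over the 9 libraries, mt-Co2 had 1.81 reads per read at its copy, mt-Atp6 1.82, mt-Co3 1.64, mt-Nd3 2.20 and mt-Nd4l 2.72. The partly copied genes were unlike them, with 313 reads at mt-Co1 per read at Gm29216 and 249 at mt-Nd4 per read at Gm28439. The 7 copies together held 0.0178% to 0.0387% of total counts in the shRNA libraries, 0.0322% to 0.0660% in old control and 0.0362% to 0.0795% in young, against 4.15% to 14.5% for the mtDNA genes over all libraries.

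Single libraries stood out among these low genes. mt-Atp6 had 2686, 1343 and 1460 reads in shRNA libraries 1, 3 and 6, 1800, 4029 and 2958 in old control libraries 1, 2 and 5, and 16627, 1558 and 2653 in the young libraries. mt-Co3 had 1681, 594 and 1076 reads in the shRNA group, 1025, 2140 and 3715 in old control, and 3072, 1680 and 7218 in young. mt-Nd4l had 259, 522 and 89 reads in the shRNA group, 75, 271 and 363 in old control, and 1138, 215 and 117 in young. Young library 1 was thus far above all others for mt-Atp6 and mt-Nd4l, and young library 5 for mt-Co3. mt-Atp6 had 4.11 reads per read at its copy in young library 1, against 0.795 to 1.70 elsewhere. mt-Co3 had 4.14 in young library 5, against 0.980 to 1.61 elsewhere.

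mt-Co2 had 1799, 833 and 1097 reads in the shRNA libraries, 1357, 2317 and 2701 in old control and 3699, 1862 and 2369 in young. Its ratio to its copy stayed between 1.41 and 2.13 in all 9 libraries. mt-Nd3 had 186, 188 and 330 reads in the shRNA libraries, 305, 548 and 643 in old control and 865, 539 and 494 in young.

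**Figure D3:**
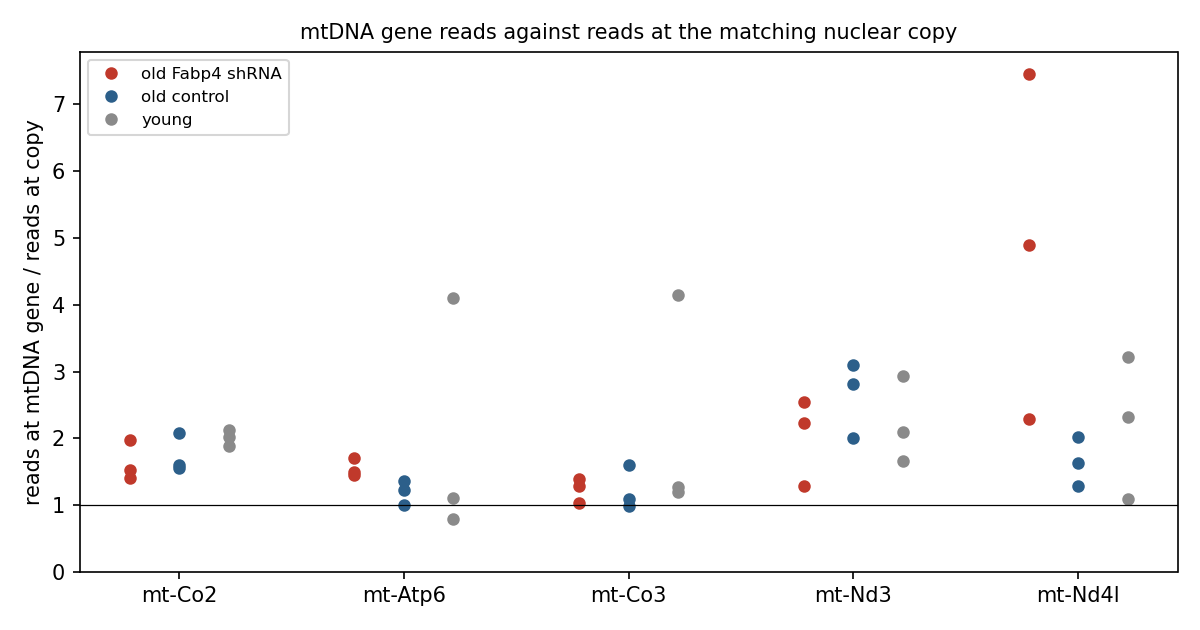
Points give the reads at 5 mtDNA protein genes divided by the reads at the matching chromosome 1 copy, for each of the 9 libraries by group. Most libraries lie between 1 and 3, with mt-Atp6 at 4.11 in young library 1 and mt-Co3 at 4.14 in young library 5. mt-Nd4l varies most, at 3.22 in young library 1, 4.89 in shRNA library 1 and 7.46 in shRNA library 3.

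mt-Atp8 had 18, 18 and 15 reads in the shRNA libraries, 5, 83 and 45 in old control and 74, 19 and 17 in young, the lowest of the protein genes. It encodes a short ATP synthase subunit and shares its last 43 bases with the start of mt-Atp6, where reads can belong to either gene. The whole gene (chrM:7766-7969, plus strand, GENCODE sequence) is printed with the shared bases in capitals.
mt-Atp8: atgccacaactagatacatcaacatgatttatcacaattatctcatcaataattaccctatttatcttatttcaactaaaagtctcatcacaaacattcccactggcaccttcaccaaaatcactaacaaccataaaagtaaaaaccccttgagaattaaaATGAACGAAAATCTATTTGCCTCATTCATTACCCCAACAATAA

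The 7 high genes held 98.9% to 99.5% of the protein-gene reads in every library, but not in fixed proportions. mt-Co1 took 34.6%, 35.4% and 27.7% of them in shRNA libraries 1, 3 and 6, 24.5%, 33.1% and 33.4% in old control libraries 1, 2 and 5, and 38.8%, 32.7% and 32.7% in the young libraries. mt-Nd4 took 10.8%, 10.7% and 13.5% in the shRNA libraries, 15.8%, 11.0% and 10.4% in old control, and 9.40%, 9.11% and 11.9% in young. Old control library 1 and shRNA library 6 had the 2 lowest mt-Co1 shares. They also had the lowest shares of mt-Nd5, 5.23% in shRNA library 6 and 3.97% in old control library 1, against 6.13% to 7.49% elsewhere.

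The same 2 libraries had the highest ribosomal RNA ratios. Old control library 1 also had the highest summed Kupffer cell markers, 309 CPM of total counts over all 3 of them. The shRNA libraries had 40.6 to 114, the other old control libraries 71.4 and 76.4, and the young libraries 60.6 to 126. shRNA library 6 had 83.5, within the range of the rest. Neutrophil markers summed to 3.34 to 12.3 CPM in the shRNA libraries, 43.5, 28.2 and 10.8 in old control libraries 1, 2 and 5 and 5.60 to 19.2 in young, so old control library 1 was highest here too. Endothelial markers summed to 134, 70.9 and 65.8 CPM in the shRNA libraries, 143, 53.2 and 92.0 in old control and 48.2 to 53.7 in young. B cell, stellate cell and T cell markers were highest in old control library 5, at 332, 262 and 6.46 CPM. Old control library 1 had 207, 151 and 1.60. Cholangiocyte markers summed to 15.5 CPM in old control library 1, close to 15.2 in old control library 5 and shRNA library 3. Single markers differed too, and the Kupffer marker Marco was at 22.3 TMM-scaled CPM in young library 5 and 17.5 in old control library 1. The part of these cells in the mtDNA values was not tested. mt-Nd6, the complex I gene on the opposite strand, overlaps mt-Nd5 by 14 bases. Its share was 2.52%, 1.75% and 1.62% in the shRNA libraries, 1.61%, 2.12% and 2.54% in old control and 2.04%, 2.45% and 2.27% in young.

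Transfer RNA reads were few, 0.307% to 0.485% of all mtDNA reads, and very unequal. The 8 genes on the minus strand of the annotation held 95.4% of them, and the 14 on the plus strand 4.59%. The strand setting of the counting is not given in the sources used here, so reads at a minus-strand gene cannot be told apart from reads of the long RNA opposite it. mt-Tp, the transfer RNA for proline, alone held 67.8%, with 3506, 1923 and 2538 reads in the shRNA libraries, 1429, 4505 and 5069 in old control and 5121, 2573 and 3944 in young. mt-Tc for cysteine had 447, 266 and 231 reads in the shRNA libraries, 231, 905 and 784 in old control and 582, 462 and 873 in young. Both were lowest in old control library 1 and shRNA libraries 3 and 6, which had the lowest mtDNA shares. Among the other libraries mt-Tc did not follow the share. It had fewer reads in young library 1 (share 13.8%) than in young library 5 (11.4%).

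mt-Tn, mt-Te and mt-Ty, for asparagine, glutamate and tyrosine, completed the 5 most counted, all on the minus strand. mt-Tn had 408, 279 and 206 reads in the shRNA libraries, 167, 662 and 490 in old control and 873, 549 and 634 in young. mt-Te had 45, 291 and 242 reads in the shRNA libraries, 171, 212 and 405 in old control and 616, 417 and 203 in young. mt-Ty had 17, 80 and 75 reads in the shRNA libraries, 60, 80 and 93 in old control and 142, 95 and 66 in young. shRNA library 1, which had the highest mtDNA share of its group, was the lowest of the 9 for mt-Te and mt-Ty.

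On the plus strand, 8 genes averaged at least 10 reads a library. mt-Tl2 for leucine had 13, 69 and 83 reads in the shRNA libraries, 60, 37 and 46 in old control and 255, 79 and 37 in young. mt-Tl1, the second leucine gene, had 17, 42 and 47 reads in the shRNA libraries, 43, 30 and 76 in old control and 96, 72 and 31 in young. Neither separated the groups. mt-Ts2 for serine had 9, 9 and 18 reads in the shRNA libraries, 16, 47 and 26 in old control and 51, 20 and 11 in young. mt-Th for histidine had 7, 12 and 9 reads in the shRNA libraries, 11, 28 and 31 in old control and 45, 43 and 7 in young. Both overlapped between groups. mt-Tr for arginine had 10, 7 and 16 reads in the shRNA libraries, 25, 14 and 24 in old control and 14, 23 and 10 in young. mt-Tm for methionine had 4, 21 and 14 reads in the shRNA libraries, 12, 11 and 10 in old control and 11, 4 and 17 in young. mt-Tg for glycine had 5, 6 and 12 reads in the shRNA libraries, 13, 10 and 16 in old control and 30, 5 and 7 in young. At such counts these 3 genes overlapped between shRNA and young livers.

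mt-Tw, the transfer RNA for tryptophan, was the member with the clearest separation. It had 1, 3 and 2 reads in shRNA libraries 1, 3 and 6, against 19, 14 and 35 in old control libraries 1, 2 and 5 and 32, 12 and 19 in the young libraries. All 3 shRNA libraries lay below all 6 others, at or under the floor of 3 reads (0.175 to 0.211 CPM of total counts). Per total count, the summed shRNA reads were 0.0847 of those in old control, with a 95% exact interval of 0.0300 to 0.194, and 0.0919 of those in young, with an interval of 0.0325 to 0.212. These intervals and floors cover counting error only. mt-Tw shares 2 bases with the end of mt-Nd2, which is counted far more deeply, at 89447 to 312795 reads.

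The other 9 transfer RNA genes averaged under 10 reads a library. Of these, 5 had between 0 and 13 reads, and mt-Tk, mt-Tf, mt-Tv and mt-Td, for lysine, phenylalanine, valine and aspartate, had 0 in all 9 libraries. Sequences of the most counted, the separated and an uncounted gene are printed from GENCODE with the anticodon in capitals: mt-Tp (chrM:15356-15422, minus strand), mt-Tc (chrM:5192-5257, minus), mt-Tw (chrM:4950-5016, plus) and mt-Tf (chrM:1-68, plus). The genes are of like length, 59 to 75 bases.
mt-Tp: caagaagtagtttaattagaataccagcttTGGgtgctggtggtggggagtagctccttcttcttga
mt-Tc: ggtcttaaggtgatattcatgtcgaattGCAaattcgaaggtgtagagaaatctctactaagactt
mt-Tw: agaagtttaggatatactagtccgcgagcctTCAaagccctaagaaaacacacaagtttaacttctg
mt-Tf: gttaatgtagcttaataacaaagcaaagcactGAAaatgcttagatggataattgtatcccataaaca

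**Figure D4:**
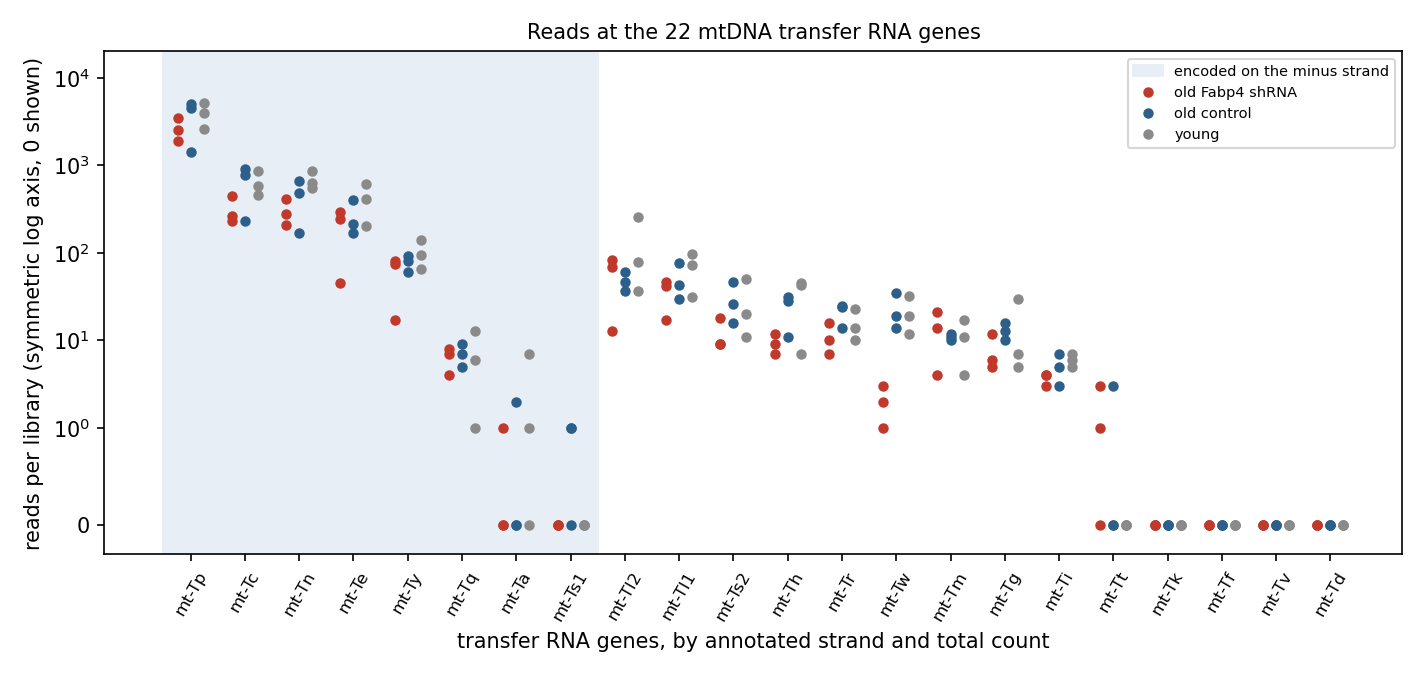
Points give reads per library (symmetric log axis) at each of the 22 transfer RNA genes, by group, with the minus-strand genes shaded. The 5 most counted genes are all on the minus strand, mt-Tw has 1 to 3 reads in the shRNA libraries against 12 to 35 elsewhere, and 4 genes have no read.

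Protein members varied more within groups than most genes did. The median SD of log2 CPM within a group, over the 13 protein genes, was 0.65 in the shRNA group, 1.01 in old control and 0.61 in young. Over all 14025 tested genes it was 0.34, 0.30 and 0.30 in the same groups, and over the 1880 with a mean of at least 1000 counts it was 0.30, 0.26 and 0.26. The 13 tested transfer RNAs had 0.53, 0.52 and 0.63.

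At equal age, the comparison of shRNA with old control livers asked what the hairpin virus changed. Of the 37 members 28 passed the filter on low counts, all 13 proteins, both ribosomal RNAs and 13 transfer RNAs, and none of them was called by edgeR's quasi-likelihood test at an adjusted p under 0.05. Over all tested genes 0% were called. At an unadjusted p under 0.05, 9 of the 28 were lower in the shRNA livers and 0 higher, where 3.48% of all tested genes were lower. The median log2 fold change was -1.14 over the proteins, -0.81 over the transfer RNAs and -0.35 over the ribosomal RNAs, against -0.01 over all tested genes. The estimates were below 0 for 26 of 28 members, where 51.4% of all tested genes were. Many members moved together with the mtDNA share from library to library, so these counts are not counts of independent genes.

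mt-Co1 stood at 25611, 12668 and 9453 CPM in shRNA libraries 1, 3 and 6, against 8715, 40329 and 48187 CPM in old control libraries 1, 2 and 5. mt-Cytb stood at 12977, 7765 and 7720 CPM in the shRNA libraries, against 9147, 25533 and 29377 CPM in old control. mt-Nd2 stood at 9340, 4934 and 4850 CPM in the shRNA libraries, against 5533, 16989 and 19745 CPM in old control. For these genes old control library 1 lay among or below the shRNA values, while the other old control libraries lay above all of them. The log2 fold changes were -1.03 ± 0.61 for mt-Co1, -1.17 ± 0.45 for mt-Cytb and -1.14 ± 0.46 for mt-Nd2 (SE, n = 3 each), with edgeR adjusted p of 0.789, 0.728 and 0.728.

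The number of members lower at an unadjusted p under 0.05 was 17 without old control library 1, where 2.56% of all tested genes were lower. It was 3 without old control library 2 and 3 without old control library 5, where 4.15% and 2.77% of all genes were. It was 11 without shRNA library 1, 2 without shRNA library 3 and 4 without shRNA library 6, where 5.64%, 2.87% and 2.18% of all genes were. It was 9 without the unnumbered young library, where 3.34% of all genes were.

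mt-Nd4 stood at 8007, 3824 and 4623 CPM in the shRNA libraries and 5627, 13418 and 14954 in old control, a log2 fold change of -1.05 ± 0.45 (edgeR adjusted p = 0.728). mt-Nd1 stood at 10890, 3563 and 4925 CPM in the shRNA libraries, 4320, 14124 and 17018 in old control and 16760, 8632 and 14956 in young. mt-Nd5 stood at 4889, 2192 and 1786 CPM in the shRNA libraries, 1415, 8082 and 10823 in old control and 10992, 5179 and 7550 in young. mt-Nd6 stood at 1867, 625 and 553 CPM in the shRNA libraries, 575, 2579 and 3674 in old control and 3357, 1708 and 2749 in young. In these genes too old control library 1 lay among or below the shRNA values. Only 4 members had every shRNA library below every old control library, mt-Nd3, mt-Tr, mt-Tw and mt-Tg, where 5.67% of all tested genes did so. mt-Nd3 stood at 11.4, 10.4 and 17.2 CPM in the shRNA libraries, against 17.7, 40.3 and 40.6 CPM in old control (log2 fold change -1.34 ± 0.35, edgeR adjusted p = 0.728). mt-Tw had a log2 fold change of -3.61 ± 0.70 (edgeR adjusted p = 0.722).

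DESeq2 called mt-Tw with an adjusted p of 0.0300, where it called 0.0501% of all genes, and limma-voom called no member and 0% of all genes. Over all alternatives the adjusted p of mt-Tw ran from 0.0261 to 0.997. Its fold change rests on 6 reads in the shRNA group and depends on the fit for its size.

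Set against young liver, none of the 28 members was called in the shRNA livers by edgeR, where 0.057% of all tested genes were. At an unadjusted p under 0.05, 16 of 28 were lower and 0 higher, where 4.5% of all tested genes were lower. The median log2 fold change was -1.40 over the proteins and -1.37 over the transfer RNAs, and 0.29 over the ribosomal RNAs, against 0.02 over all genes. This comparison shares its shRNA libraries with the one before, and its members are likewise not independent genes.

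Every shRNA library lay below every young library for 11 members, where 6.67% of all tested genes did so, and without the unnumbered young library this was 17, where 14.5% of all genes did so. mt-Nd3 was at 11.4, 10.4 and 17.2 CPM in the shRNA libraries and 63.9, 34.4 and 37.7 CPM in the young libraries, a log2 fold change of -1.80 ± 0.36 (edgeR adjusted p = 0.162). mt-Co2 was at 110, 45.9 and 57.3 CPM in the shRNA libraries and 273, 119 and 181 CPM in the young libraries (-1.43 ± 0.42, edgeR adjusted p = 0.401). mt-Tw had a log2 fold change of -3.68 ± 0.70 (edgeR adjusted p = 0.149).

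DESeq2 called these 3 members, with adjusted p of 0.00105 for mt-Nd3, 0.0453 for mt-Co2 and 0.00307 for mt-Tw, where it called 0.887% of all genes. Over the alternatives the adjusted p ran from 0.000597 to 0.686 for mt-Nd3, from 0.0453 to 0.924 for mt-Co2 and from 0.00307 to 0.615 for mt-Tw. limma-voom called no member, and 0% of all genes. The count of members lower at an unadjusted p under 0.05 was 5 without young library 1, 8 without shRNA library 3 and 10 without shRNA library 6, where 2.64%, 2.61% and 3.36% of all tested genes were lower. It was 20 without the unnumbered young library, where 5.58% of all genes were.

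mt-Co3 and mt-Atp6 had log2 fold changes of -2.21 ± 0.71 and -2.28 ± 0.91 against young, which include the single high young libraries described above. Without young library 1 the estimate for mt-Atp6 was -0.53, and without young library 5 that for mt-Co3 was -1.39. The ribosomal RNAs differed in sign from the proteins, with 0.41 ± 0.45 for mt-Rnr1 and 0.16 ± 0.46 for mt-Rnr2 (SE, edgeR adjusted p = 0.804 and 0.939). The estimate for mt-Rnr2 changed sign under some alternatives, to -0.07 without the unnumbered young library and -0.16 without shRNA library 6.

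Old control livers were set against young livers to compare ages, and the labels describe an injection of the old mice only. edgeR called none of the 28, where 0.0357% of all tested genes were called, and DESeq2 and limma-voom called none, where they called 1.2% and 0.0214% of all genes. At an unadjusted p under 0.05, 0 members were lower, where 4.07% of all tested genes were, and 0 were higher. No member had every old control library below every young library, where 8.26% of all genes did. Without the unnumbered young library, 2 members did so, mt-Co2 and mt-Tm, where 15.3% of all genes did, and 2 were lower at an unadjusted p under 0.05, where 4.75% of all genes were.

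The median log2 fold change of old control against young was -0.22 over the proteins, -0.28 over the transfer RNAs and 0.64 over the ribosomal RNAs, against 0.01 over all genes. The protein median turned to 0.09 without young library 1 and to 0.18 without old control library 1. Without the unnumbered young library the medians were -0.47 over the proteins, -0.59 over the transfer RNAs and 0.36 over the ribosomal RNAs. mt-Co1 was at 8715, 40329 and 48187 CPM in old control libraries 1, 2 and 5, and at 63751, 22821 and 39661 CPM in the young libraries. Its log2 fold change was -0.38, with a 95% interval of -1.70 to 0.95. mt-Rnr1 and mt-Rnr2 had 0.67 ± 0.45 and 0.61 ± 0.46 (SE, edgeR adjusted p = 0.618 and 0.665).

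**Figure D5:**
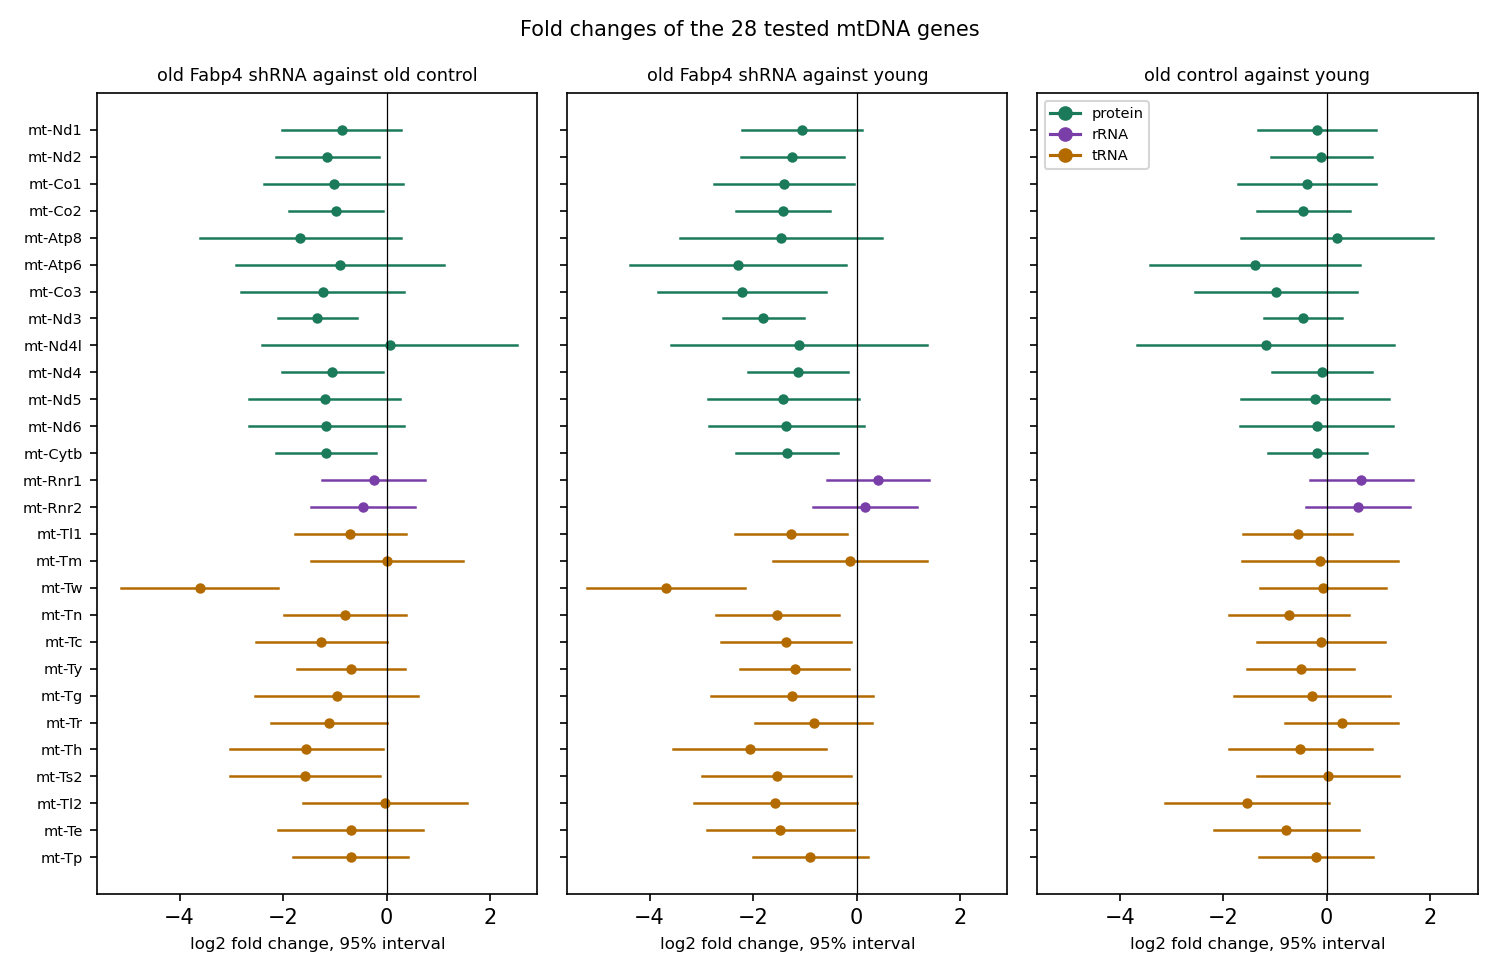
Points give edgeR log2 fold changes of the 28 tested members with 95% intervals in the 3 comparisons, coloured by class. The protein medians are -1.14 for old Fabp4 shRNA against old control, -1.40 against young and -0.22 for old control against young, where the ribosomal RNA medians are -0.35, 0.29 and 0.64.

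The nuclear genes that make, process and charge mtDNA transcripts were examined as 4 lists. These held 18 genes of transcription and replication, 31 of processing and stability, 17 mitochondrial aminoacyl-tRNA synthetases and 9 regulators, and all 75 were tested. edgeR called none of them in any comparison. At an unadjusted p under 0.05, 3 were higher and 2 lower in shRNA livers against old control, where 458 and 488 (3.48%) of the 14025 tested genes were. In shRNA livers against young, 0 were higher and 3 lower, where 622 and 631 (4.5%) of all tested genes were. In old control against young, 0 were higher and 4 lower, where 901 and 571 (4.07%) of all tested genes were. Tfam, which packs mtDNA and starts its transcription, was at 36.8, 42.9 and 39.6 CPM in the shRNA libraries, 32.0, 40.2 and 39.0 CPM in old control and 43.0, 46.7 and 35.8 CPM in young. Tfam, named here for its role, overlapped between all groups.

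For shRNA against old control, the lowest p in each list went to Ssbp1, a single-stranded DNA binding protein of mtDNA replication, Pnpt1, an RNA-degrading enzyme, Rars2, the arginyl-tRNA synthetase, and Sirt3, a deacetylase. Ssbp1 was at 23.9, 22.5 and 29.6 CPM in shRNA libraries and 31.9, 37.8 and 33.3 CPM in old control (log2 fold change -0.44 ± 0.20, edgeR adjusted p = 0.728). Rars2 was at 11.2, 12.1 and 9.61 CPM in shRNA libraries and 6.74, 6.70 and 7.95 CPM in old control (0.62 ± 0.23, adjusted p = 0.728). Both genes were without overlap between the groups, but they were picked for the lowest p in this same comparison. Of all 14025 tested genes, 795 (5.67%) had every shRNA library below every old control library and 844 every one above. Pnpt1 and Sirt3 had -0.53 ± 0.24 and 0.51 ± 0.20, with edgeR adjusted p of 0.728 each.

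The median log2 fold change of shRNA against old control was 0.13 over 19 nuclear subunits of the same complexes, 0.26 over 4 complex II genes and 0.42 over 5 genes of mitochondrial mass, where it was -1.14 over the mtDNA proteins. edgeR called none of these 28 genes in any comparison. Hspa9, a mitochondrial chaperone, was at 407, 446 and 368 CPM in the shRNA libraries, against 216, 347 and 221 CPM in old control, with no overlap (0.64 ± 0.27, adjusted p = 0.728). Hspa9 was likewise picked for its low p here, and 844 of the 14025 tested genes had every shRNA library above every old control library. Tomm20, an import receptor, was at 55.8, 46.9 and 49.7 CPM in the shRNA libraries and 25.9, 44.1 and 29.3 CPM in old control (0.62 ± 0.28, adjusted p = 0.728). Ndufv1, a complex I subunit, had 0.57 ± 0.21 and Sdhd, a complex II subunit, 0.69 ± 0.22, with the same adjusted p. Of the 19 nuclear subunits 6 were below 0, and of the 4 complex II genes 2 were, where 51.4% of all tested genes were. The difference between these lists and the mtDNA genes was not tested.

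Set against young liver, the nuclear subunits lay lower in both old groups. Their median log2 fold change was -0.27 in shRNA livers and -0.41 in old control livers, and 18 of 19 were below 0 in shRNA livers and all 19 in old control livers, where 47.8% and 48.9% of all tested genes were. At an unadjusted p under 0.05, 6 of them were lower in shRNA livers and 9 in old control livers, where 4.5% and 4.07% of all genes were, and none was higher. These list values include the unnumbered young library with its muscle RNA, and none is given without it. Cox5a was at 101 CPM in it, against 50.2 and 55.6 in young libraries 1 and 5, and Cox6c at 384 against 531 and 638. With any single library left out, old control against young ran from -0.81 to -0.59 for Ndufv1 and from -0.72 to -0.52 for Vdac1. Ndufv1 was at 91.0, 90.9 and 65.7 CPM in old control libraries 1, 2 and 5, against 127, 162 and 121 CPM in the young libraries (log2 fold change -0.73 ± 0.21, edgeR adjusted p = 0.296). Vdac1, the main pore of the outer membrane, was at 110, 129 and 117 CPM in old control and 181, 209 and 153 CPM in young (-0.61 ± 0.20, adjusted p = 0.363). Esrra, a regulator of mitochondrial genes, was at 40.1, 21.9 and 27.8 CPM in old control and 55.7, 53.7 and 32.8 CPM in young, with overlap (-0.66 ± 0.26, adjusted p = 0.410). Sdhb, a complex II subunit, was at 182, 131 and 154 CPM in the shRNA libraries, against 341, 239 and 271 CPM in young (log2 fold change -0.87 ± 0.22, edgeR adjusted p = 0.333). DESeq2 called it with an adjusted p of 0.0174, in a range over the alternatives of 0.0174 to 0.781. Malat1 and Neat1, RNAs retained in the nucleus, were not called either, with 0.13 ± 0.34 and -0.81 ± 0.34 for shRNA against young. They had -0.30 ± 0.34 and -0.72 ± 0.34 for shRNA against old control and 0.43 ± 0.34 and -0.10 ± 0.34 for old control against young.

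The other nuclear genes with the 1st or 2nd lowest p in their list had edgeR adjusted p of 0.366 to 0.831, so none was called. For shRNA against old control, the log2 fold changes were -1.14 ± 0.67 for Mterf1b of the transcription list, 0.43 ± 0.20 for Elac2, which trims the ends of transfer RNAs, 0.46 ± 0.21 for Yars2, the tyrosyl-tRNA synthetase, and 0.34 ± 0.24 for Gabpa, a transcription factor. They were 0.59 ± 0.29 for Sdha of complex II and 0.63 ± 0.26 for Cox5a of complex IV. For shRNA against young they were -1.14 ± 0.53 for Mterf2, -0.47 ± 0.23 for Top1mt, the mitochondrial topoisomerase, -0.92 ± 0.32 for Mrm3, a methyltransferase of the large ribosomal RNA, and -0.50 ± 0.23 for Fastk. They were 0.50 ± 0.23 for Rars2, -0.29 ± 0.21 for Fars2, the phenylalanyl-tRNA synthetase, and, of the coactivators, -0.78 ± 0.32 for Ppargc1a and 0.46 ± 0.26 for Pprc1. The subunits Atp5c1, Ndufa10 and Sdhc had -0.71 ± 0.24, -0.64 ± 0.24 and -0.43 ± 0.22, and Vdac1 and the chaperone Hspd1 had -0.43 ± 0.20 and 0.28 ± 0.25.

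For old control against young, Top1mt had a log2 fold change of -0.45 ± 0.23 and Mgme1, a nuclease of mtDNA replication, 0.73 ± 0.40. Mrm3 had -0.78 ± 0.32 and Pus1, which makes pseudouridine in transfer RNAs, -0.52 ± 0.23. Fars2, Yars2 and Ppargc1a had -0.47 ± 0.21, -0.36 ± 0.21 and -0.57 ± 0.32. The subunits Uqcrc1, Sdhd and Sdhb had -0.56 ± 0.20, -0.67 ± 0.22 and -0.65 ± 0.22, and Hspa9 had -0.55 ± 0.27. Apart from Mgme1 and Malat1, each of the nuclear genes the rule picked by p for old control against young had an estimate below 0. The full lists went both ways. Above and below 0 lay 8 and 10 genes of transcription and replication, and 9 and 22 of processing and stability. The synthetases had 4 and 13 and the regulators 4 and 5, where 48.9% of all tested genes were below 0.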

How the data were processed

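Liver RNA of 9 mice was sequenced, and reads were aligned with HISAT2 to GRCm38.p6, per the submitters' processing notes. What counted the reads, with which strand setting and what rule for several matches, is not given in the sources used here. Whole reads per gene stand in the deposited count table, with 14243344 to 17125440 counts a library. The authors' deposited FPKM table was used for alternatives, and fixed multiples of the counts held for 100% of 10483 genes in 8 columns, but 0.467% in the unnumbered young column. That column was scaled back to 11805823 reads, 100% of 17252 values being whole within 0.05. Columns that fit no sample or group numbered 0.

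Genes were filtered with filterByExpr, scaled by TMM and tested with edgeR 4.0.16 (R 4.3.3), 1 mean per group over 9 libraries, 6 residual degrees of freedom, two-sided, with Benjamini-Hochberg adjustment over 14025 genes. DESeq2 1.42.0 and limma 3.58.1 served as alternatives, as did leaving out libraries, other scalings and filters. The test was checked on simulated data. Copies were found with blastn 2.17.0 (95% identity, 100 bases) in GENCODE M21. All 33 members with an FPKM above 0 had a FPKM length equal to that in GENCODE. The labels do not say that same-numbered mice are paired. Shares and ratios are described with no test. Members and lists were chosen with earlier results of these data known. The rule named all members, with every library's value for those with a mean of at least 10 counts (here as reads or as CPM), and the 2 nuclear genes with the smallest p per list and comparison. Of those nuclear genes some are given by library and the rest by fold change. Tfam lies outside the rule.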

Additional observations from a re-analysis of the deposited data

Results flagged for a closer look

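The authors' FPKM column of the unnumbered young library does not hold the same values as its count column, and it was used only in alternatives (both FPKM fits and the recovered reads), not in the comparisons as reported. It is given here as a signal in data outside them. Scaled back to whole reads, it held mtDNA genes at 12.1% of its 11805823 reads, where the count column of that name held 6.89%. With these reads in place of the count column, the difference in mean mtDNA share was -6.83 percentage points for shRNA against young. For old control against young it was -2.44. mt-Atp6 had 6035 reads in the FPKM column, against 1558 in the count column.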

How the results depend on the processing

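The number of members called kept to 0 in all 3 comparisons without any single library, and under the other alternatives except these. For shRNA against old control it was 1 with no filter on low counts, 1 with DESeq2, and 1 with limma-trend on FPKM (log2, pseudocount 1 or 0.1), where 0.031%, 0.0501% and 0.00714% of all genes were called. For shRNA against young it was 2 with no filter, 3 with DESeq2, 2 with either FPKM fit and 2 with the recovered reads, where 0.364%, 0.887%, 0.436% and 0.507%, and 0.409% of all genes were called. Of the nuclear subunits, complex II genes, mass genes and nuclear-retained RNAs, DESeq2 called 1 over the 3 comparisons. This was Sdhb of complex II for shRNA against young, where 0.887% of all genes were called. The causes were not tested. The pairs of same-numbered animals had correlations of 0.124, 0.096, 0.044 and -0.048, so the numbers are not taken to pair the mice. A fit with the number as a block takes no group difference from a library whose number no other library shares. These are old control library 2, shRNA libraries 3 and 6 and the unnumbered young library. Its shRNA differences thus rest on shRNA library 1 alone and cannot speak for the group. With the replicate number as a block, 1 member was called for old control against young, where 1.13% of all genes were.

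Estimates that turned sign were all far from the threshold. With the replicate block, old control against young gave -0.14 for mt-Rnr1 and -0.22 for mt-Rnr2. From shRNA library 1 alone, shRNA against old control gave 0.56, 0.13 and 0.082 for mt-Co1, mt-Nd2 and mt-Nd4. The same fit gave -0.20 for mt-Nd4l (0.06 as reported), 0.051 for Pnpt1 and -0.20 for Gabpa. From the same shRNA library, shRNA against young gave -0.83, -1.25 and -0.053 for mt-Rnr1, mt-Rnr2 and Malat1. The FPKM fits gave -0.098 and -0.099 for mt-Rnr2 and -0.076 and -0.077 for Malat1 at pseudocounts of 1 and 0.1, and recovered reads -0.094 for Malat1. Unscaled libraries, which moved the median of all genes to 0.16, 0.13 and 0.31 for old control against young, shRNA against old control and shRNA against young, gave 0.069 for Neat1 with age and 0.0087 for Fars2 against young. They left 6 members lower at an unadjusted p under 0.05 for shRNA against old control and 8 against young, in place of 9 and 16, where 1.48% and 1.23% of all genes were lower. Leaving out libraries gave ranges for old control against young of -0.78 to 0.072 (mt-Co1), -1.90 to 0.37 (mt-Atp6) and -0.34 to 0.056 (Neat1). For shRNA against old control they were -0.62 to 0.51 (mt-Nd4l), -0.64 to 0.22 (mt-Rnr1) and -0.77 to 0.098 (mt-Rnr2), and against young -0.16 to 0.48 (mt-Rnr2) and -0.14 to 0.53 (Malat1). Of 1628 fold changes recomputed, 33 turned sign and 16 passed the threshold. Adding the copies, dropping Alb or counting proteins alone left the share differences at -0.820 to -0.697, -4.92 to -4.35 and -5.74 to -5.12 points in the same order. Depth limits the transfer RNAs, of which 9 averaged under 10 reads a library.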
